A study of Mus musculus with 4 samples.

Results

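The cytosolic ribosomal protein genes of mouse keratinocytes were followed through 4 RNA-seq libraries. They were chosen by symbol: every row named as a protein of the small subunit (Rps) or the large subunit (Rpl, with the stalk proteins Rplp0, Rplp1 and Rplp2) was taken, while pseudogene symbols ending in "-ps" and numbers and the S6 kinase rows were left out. The pattern found 82 of the 13102 genes listed, of which 33 belong to the small subunit, 46 to the body of the large subunit and 3 to its stalk. GENCODE M21 places 81 of them as protein-coding genes. The other one, Rps4l, is annotated there as a transcribed pseudogene.

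The cells were epidermal keratinocytes, the cells that build the outer layer of the skin, isolated from newborn C57BL/6 mice with dispase and trypsin and grown for 48 h in 154CF medium with the HKGS supplement. One group was untreated wild type (WT). The other groups received 100 ng/mL of interleukin-17A (IL-17A), an inflammatory cytokine that acts on the epidermis, for 8 h. Their cells were WT, Il17rc knockout (KO) or Il17rd KO. Both knocked-out genes encode receptor chains of the IL-17 family, and the study asked whether the Il17rd product serves as another receptor for IL-17A. The labels do not say how the knockouts were made, how many animals gave each culture or whether the cultures came from littermates.

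Each group has 1 library, so differences cannot be checked against replicates and no p-values are given. Untreated knockout cells are not analysed here, so a difference of genotype and a difference in the response to IL-17A cannot be told apart. The counts summed to between 19711866 and 19904695 per library. In the library labelled Il17rd KO, Il17rd had 5 counts against 150 to 265 in the others. In the library labelled Il17rc KO, Il17rc had 439 counts against 1152 in IL-17A WT, 1718 in Il17rd KO and 2729 in untreated WT, so transcript of the targeted gene was still counted there. All 9 keratinocyte markers were present, and their summed level ran from 30977 CPM (a gene's counts relative to the scaled size of the library) in IL-17A WT to 44489 CPM in untreated WT. Differentiation markers differed most: Krt1 stood at 2537 CPM in untreated WT, 38.6 in treated WT, 618 in Il17rc KO and 1097 in Il17rd KO. Markers of other cells also varied. Summed over the list, 7 fibroblast markers were between 9.45 and 52.3 CPM, 8 melanocyte markers between 1640 and 2489 CPM, 4 immune markers between 6.58 and 52.9 CPM and 2 endothelial markers between 7.88 and 17.6 CPM. In the fibroblast list IL-17A WT was the lowest library and untreated WT the highest, and the same was true of the melanocyte list. The part of these cells in the results that follow was not tested. In bulk RNA, fewer cells of a type and less RNA per cell cannot be told apart.

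A ribosome is built in the nucleolus from ribosomal RNA and one copy each of nearly all ribosomal proteins, so cells normally make these proteins in matched amounts. Their mRNAs are abundant and many begin with a terminal oligopyrimidine (TOP) tract, a C at the first base followed by a run of C and T, through which the kinase mTOR controls their translation rather than their abundance. Mammalian genomes also carry many processed copies of these genes, made by reverse transcription of the mRNA, and a short read from the gene can fit such a copy as well. In skin, mutations of Rps19 and Rps20 in mice darken the epidermis through p53 and Kit ligand, and mutations in a set of these genes cause Diamond-Blackfan anaemia.

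Some sequences show what the counts can and cannot separate. RefSeq windows around the annotated start sites (GRCm38.p6) were available for 61 of the 82 genes. Of these, 13 (21.3%) had a C at an annotated start followed by at least 4 pyrimidines, as against 813 of 27025 genes in the whole table (3.01%). The annotated start can be some bases away from the true one, so the count describes the annotation. The windows below hold 15 bases on each side of the start, 5′ to 3′ on the gene's strand, and capitals mark the pyrimidine run. They are shown for Rpl28, Rpl15 and Rpl35a, which varied most among the genes with such a run, and for Rps6 and Rplp2.
Rpl28, chr7:4792950-4792979, plus strand: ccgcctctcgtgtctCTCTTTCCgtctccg
Rpl15, chr14:18270972-18271001, minus strand: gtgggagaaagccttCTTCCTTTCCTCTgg
Rpl35a, chr16:33056467-33056496, plus strand: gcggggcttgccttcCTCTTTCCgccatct
Rps6, chr4:86857353-86857382, minus strand: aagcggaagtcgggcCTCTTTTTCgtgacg
Rplp2, chr7:141447636-141447665, plus strand: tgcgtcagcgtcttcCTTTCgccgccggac

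Within 250 bases before to 50 bases after the start, the ETS-family motif CCGGAAG or its reverse complement CTTCCGG was present in 25 of the 61 genes (41.0%) and in 9.93% of all genes in the table. The YY1 motif AAGATGG or its reverse complement CCATCTT was present in 10 of the 61 (16.4%) and in 7.28% of all genes. Both strands were searched, and a match in the form CTTCCGG or CCATCTT can overlap a TOP run. A match describes the letters and not a bound site.

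Copies were searched for the 81 genes placed as protein-coding, which leaves out Rps4l. Of the 82 genes, 78 have at least 1 annotated copy elsewhere that is 95% or more identical to the transcript along 50% or more of either sequence. There are 607 such copies in all, with a median of 5 per gene and a maximum of 62 for Rpl21, and 119 of them are rows of these tables. Stretches of 60 coding bases from 4 genes and a copy of each illustrate how little there is to tell a read's origin. They are written 5′ to 3′ in the sense of the gene, from GENCODE M21 (GRCm38), and capitals mark the bases that differ between gene and copy.
Rpl28 and Rpl28-ps1, identical over all 411 coding bases aligned: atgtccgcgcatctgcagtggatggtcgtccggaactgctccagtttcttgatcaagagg
Rpl39: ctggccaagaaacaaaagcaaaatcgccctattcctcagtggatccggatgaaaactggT
Rpl39-ps: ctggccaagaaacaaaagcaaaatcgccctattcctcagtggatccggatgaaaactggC
Rpl34: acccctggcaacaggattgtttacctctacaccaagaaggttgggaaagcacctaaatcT
Rpl34-ps1: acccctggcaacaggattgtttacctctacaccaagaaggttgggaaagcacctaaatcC
Rps3a1: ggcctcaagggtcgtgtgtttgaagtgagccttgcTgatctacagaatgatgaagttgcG
Gm13408: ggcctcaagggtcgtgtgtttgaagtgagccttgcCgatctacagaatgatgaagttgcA

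Rpl28 lies on chromosome 7 (4792874 to 4795066, plus strand) and its processed copy Rpl28-ps1 on chromosome 1 (128038569 to 128038982). The Rpl39 gene is on chromosome X (37082520 to 37085402, minus strand) and Rpl39-ps on chromosome 15, with 1 coding mismatch over 150 bases. Rpl34 is on chromosome 3 (130726831 to 130730398, minus strand) and Rpl34-ps1 on chromosome 6, with 2 coding mismatches over 353 bases. Rps3a1 is also on chromosome 3 (86137940 to 86142702, minus strand) and its copy Gm13408 on chromosome 2 (34564999 to 34565796), with 9 coding mismatches over 792 bases. How the authors' counting treated reads that fit several places is not stated in any source used here.

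Summed over the 82 genes, the ribosomal protein mRNAs made up a slightly smaller part of the library in each IL-17A library than in untreated WT, and the smallest part in Il17rd KO. The summed level was 32571 CPM in untreated WT, 30406 in treated WT, 28754 in Il17rc KO and 26435 in Il17rd KO. Without the scaling, the members' counts were 3.14%, 2.99%, 2.91% and 2.75% of all counts in the same order. IL-17A WT stood at 0.934 times untreated WT (95% counting interval 0.930 to 0.937), Il17rc KO at 0.946 times IL-17A WT (0.942 to 0.949), Il17rd KO at 0.869 times IL-17A WT (0.866 to 0.873) and at 0.919 times Il17rc KO (0.916 to 0.923). The intervals are exact conditional binomial intervals of the counts, which cover counting error only and treat reads as independent. Differences of this size between single cultures cannot be told apart from variation between dishes. The first 3 comparisons share the IL-17A WT library.

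**Figure D1:**
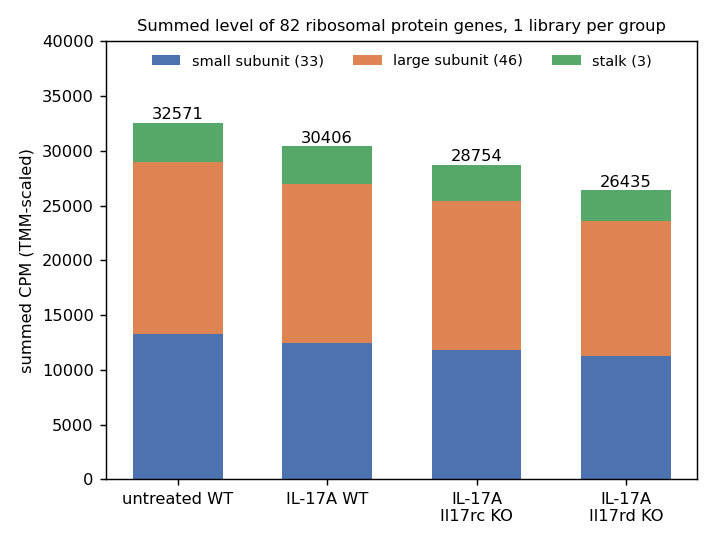
Stacked bars give the summed TMM-scaled CPM (y axis, from 0) of the small-subunit, large-subunit and stalk genes in each of the 4 libraries (x axis), with the total printed above each bar. The totals are 32571 in untreated WT, 30406 in treated WT, 28754 in Il17rc KO and 26435 in Il17rd KO.

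The small subunit summed to 13322, 12421, 11831 and 11293 CPM in untreated WT, IL-17A WT and the Il17rc and Il17rd KO, in that order. For the large subunit without the stalk the sums were 15659, 14564, 13587 and 12306 CPM. The stalk genes, which encode the proteins that recruit elongation factors to the ribosome, gave 3590, 3421, 3336 and 2837 CPM. All 3 sets were thus highest in untreated WT and lowest in Il17rd KO. Between the knockouts the small subunit differed least, with a ratio of Il17rd KO to Il17rc KO of 0.954 (0.949 to 0.960), against 0.906 (0.901 to 0.911) for the large subunit and 0.850 (0.841 to 0.860) for the stalk.

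Gene by gene the order was less uniform. Untreated WT was the highest library for 48 of the 82 genes, IL-17A WT for 25, Il17rc KO for 9 and Il17rd KO for 0. Il17rd KO was the lowest library for 50 genes, Il17rc KO for 15, untreated WT for 12 and IL-17A WT for 5. Only 15 genes had levels falling in the order untreated WT, IL-17A WT, Il17rc KO, Il17rd KO, the order of the sums. All 3 stalk genes, 23 of the 33 small-subunit genes and 24 of the 46 large-subunit genes were lowest in Il17rd KO. The same counts were not made over all genes. These orders therefore describe the members and do not show what is particular to them.

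**Figure D2:**
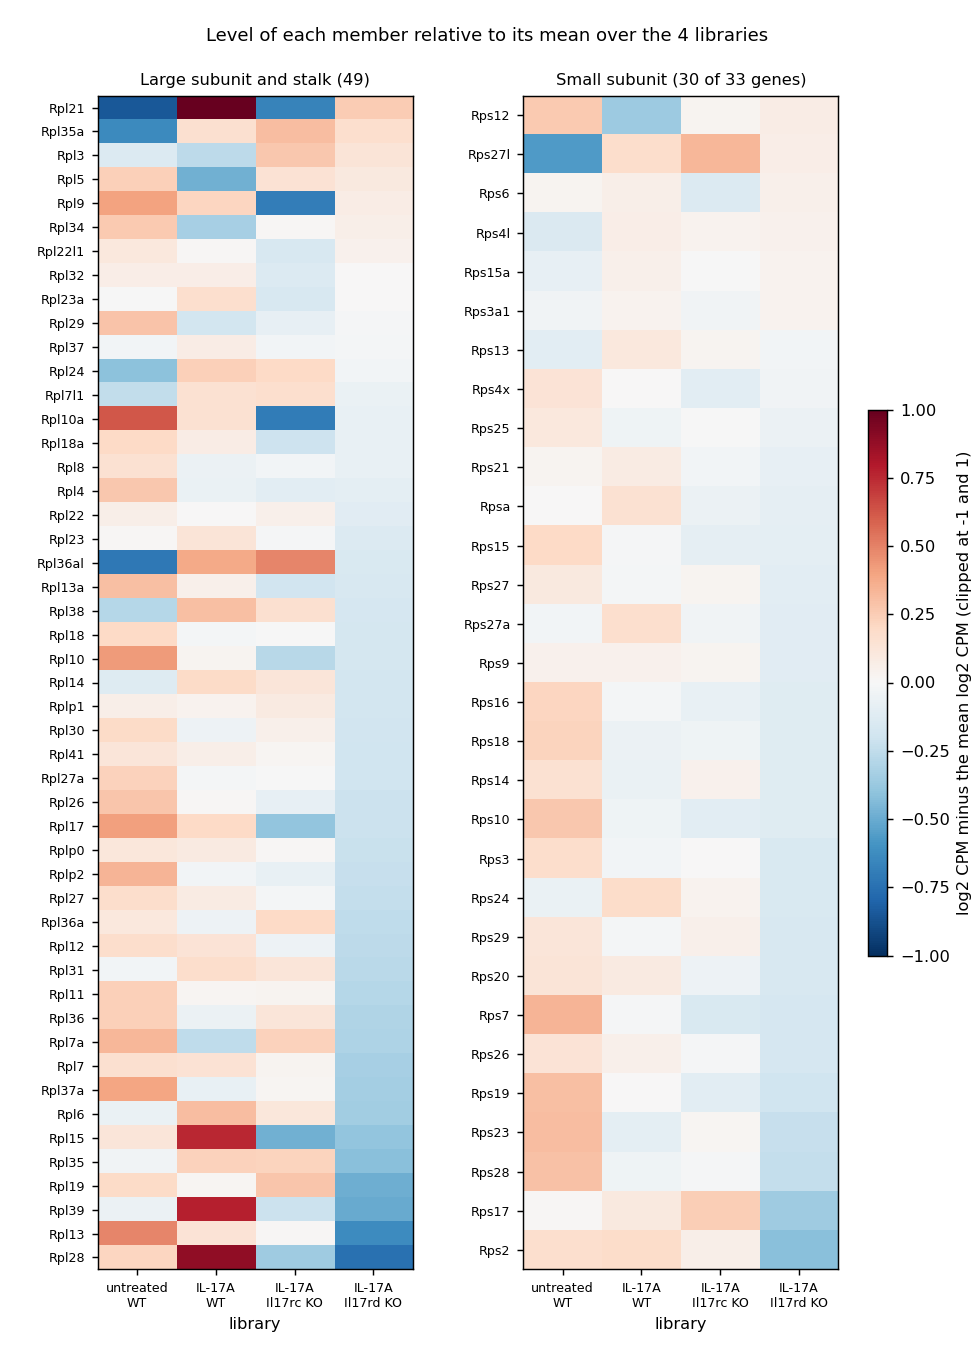
Each row is a member gene (3 small-subunit genes are not shown) and each column a library; colour gives the log2 CPM minus the gene's mean log2 CPM over the 4 libraries, clipped at -1 and 1, with rows ordered by the Il17rd KO value. Most rows are pale, the Il17rd KO column is blue for most genes, and the strong colours belong to a few large-subunit genes such as Rpl21, Rpl28, Rpl15 and Rpl39.

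The range of a gene over the 4 libraries, its highest over its lowest CPM, had a median of 1.34-fold over the 82 genes and of 1.54-fold over the 12934 genes that average 1 CPM or more. Of the members, 58 stayed within 1.5-fold and 8 (9.76%) spanned 2-fold or more, as against 27.8% of all genes. The members are among the more abundant genes, and among the 9342 genes at or above the lowest member's mean CPM the median range was 1.45-fold and 20.4% spanned 2-fold or more. The narrowest range was that of Rps3a1, 1.05-fold, and the widest that of Rpl21, 4.34-fold.

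A gene was called higher or lower when its ratio reached 2-fold and the counting interval excluded 1, a rule of size that describes 2 libraries. In IL-17A WT against untreated WT, 2 of the 82 members were called higher and 0 lower, while 19.7% of all genes were called in either direction. By a smaller rule of size, at least 25% above or 20% below (the 25% rule), 12 members were higher and 14 lower, with 27.8% of all genes higher and 28.2% lower. The members' median log2 ratio was -0.10, against 0.00 over all genes. Of the 82 members 52 were below 0, as were 6416 of the 12934 genes tested.

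The genes higher in IL-17A WT were led by Rpl21, a large-subunit gene whose human counterpart is mutated in a hereditary hair loss, and by Rpl36al, a gene that encodes a near copy of the Rpl36a protein. Rpl21 had 9.81 CPM in untreated WT, 42.6 in treated WT, 11.1 in Il17rc KO and 21 in Il17rd KO. Its ratio of IL-17A WT to untreated WT was 4.34 (3.70 to 5.11). Rpl21 was the least abundant member per length, with a mean of 6.20 FPKM (a level corrected for gene length). Rpl36al had 5.58 CPM in untreated WT and 12.0, 12.9 and 8.28 CPM in IL-17A WT and the Il17rc and Il17rd KO, and its ratio in WT was 2.14 (1.70 to 2.72). All 3 IL-17A libraries were above untreated WT for both genes, and for Rpl21 the Il17rc KO library was close to the untreated one (ratio 1.13, 0.930 to 1.38).

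Next in size were Rpl39 (1.78-fold, 1.70 to 1.87), Rpl35a (1.73-fold, 1.59 to 1.88), Rps27l (1.67-fold, 1.55 to 1.81), Rpl28 (1.59-fold, 1.54 to 1.65), Rpl24 (1.57-fold, 1.37 to 1.801) and Rpl15 (1.56-fold, 1.49 to 1.62). They divide by what the knockout libraries showed. Rpl35a, a large-subunit gene mutated in some families with Diamond-Blackfan anaemia, had 46.1 CPM in untreated WT and 79.8, 88.6 and 80.1 CPM in IL-17A WT and the Il17rc and Il17rd KO. Rps27l, whose human counterpart is induced by p53, had 52.3 CPM in untreated WT and 87.6, 97.6 and 81.2 CPM in the same IL-17A libraries. Rpl24, a large-subunit gene with lower counts, had 18.2 CPM in untreated WT and 28.5, 27.7 and 23.7 CPM in those libraries. For these 3 genes every IL-17A library lay above the untreated one.

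Rpl28, Rpl39 and Rpl15, by contrast, were high in IL-17A WT alone. Rpl28 had 296 CPM in untreated WT, 472 in treated WT, 199.5 in Il17rc KO and 152 in Il17rd KO. Rpl39, which encodes a very small basic protein inside the peptide exit tunnel, had 131, 233, 117 and 96.2 CPM in the same order. Rpl15, a Diamond-Blackfan gene of the large subunit, had 211, 327, 139 and 147 CPM. In each of the 3 both knockouts were below untreated WT as well, so the ratios of the knockouts to IL-17A WT rest on 1 high library and on low knockout libraries.

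At the other end, Rpl5 had the lowest ratio with IL-17A in WT cells, 0.608 (0.593 to 0.624). Its product joins the 5S ribosomal RNA and the product of Rpl11, and when the ribosome cannot be assembled this particle binds Mdm2 and stabilises p53. Rpl5 had 796 CPM in untreated WT, 484 in treated WT, 746 in Il17rc KO and 720.2 in Il17rd KO, so that the IL-17A WT library alone was low. Rpl11 had 489, 421, 421 and 340 CPM in that order, and its ratio in WT was 0.861 (0.835 to 0.887). The 2 genes therefore shared a lower level in treated than in untreated WT but differed in the knockouts. Rps12 followed with a ratio of 0.646 (0.615 to 0.679), then Rpl34 with 0.661 (0.630 to 0.693) and Rpl7a with 0.669 (0.636 to 0.704).

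In Il17rc KO against IL-17A WT, 0 members were called higher and 3 lower, with 11.1% of all genes called in either direction. By the 25% rule, 5 members were higher and 9 lower, against 21.6% and 16.8% of all genes. The median log2 ratio was -0.07, and 0.04 over all genes. The called genes were Rpl21 (ratio 0.261, 0.224 to 0.303), Rpl28 (0.423, 0.408 to 0.439) and Rpl15 (0.424, 0.405 to 0.443). Rpl39 lay just short of 2-fold, at 0.503 (0.478 to 0.529). Among the genes on the higher side were Rpl5 (1.54-fold, 1.5 to 1.58) and Rpl3 (1.44-fold, 1.40 to 1.48), whose product reaches towards the peptidyl transferase centre.

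A pair of large-subunit genes was low in the Il17rc KO library. Rpl10a, which encodes the protein of the mobile L1 stalk near the exit site for tRNA, had 632 CPM in untreated WT, 456 in treated WT, 253 in Il17rc KO and 391 in Il17rd KO. Its ratio of Il17rc KO to IL-17A WT was 0.555 (0.537 to 0.575). Rpl9 had 491, 431, 229.9 and 391 CPM, and the ratio was 0.533 (0.515 to 0.553). For both genes the Il17rc KO library stood below the other 3, whose levels for Rpl9 differed by much less.

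In Il17rd KO against IL-17A WT, 0 members were called higher and 4 lower, with 10.0% of all genes called in either direction. By the 25% rule, 4 members were higher and 19 lower, against 19.8% and 15.5% of all genes. The median log2 ratio was -0.19, and 0.01 over all genes. Of the 82 ratios 75 were below 0, and of the 12934 genes tested 6301 were. The called genes were Rpl28 (0.322, 0.309 to 0.336), Rpl39 (0.413, 0.391 to 0.435), Rpl15 (0.450, 0.431 to 0.470) and Rpl21 (0.494, 0.439 to 0.556). Rpl13 came next with 0.587 (0.570 to 0.603). Its level was 844 CPM in untreated WT, 664 in treated WT, 606 in Il17rc KO and 389 in Il17rd KO, so that the Il17rd KO library stood below the other 3. The 7 members above 0 included Rpl5 (1.49-fold, 1.45 to 1.53), Rps12 (1.36-fold, 1.29 to 1.43), Rpl34 (1.32-fold) and Rpl3 (1.31-fold, 1.28 to 1.34).

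Between the knockouts, Il17rd KO against Il17rc KO, 0 members were called in either direction, with 4.24% of all genes called. By the 25% rule, 3 members were higher and 15 lower, against 13.3% and 12.6% of all genes. The higher ones were Rpl21 (1.89-fold, 1.61 to 2.23), Rpl9 (1.70-fold, 1.64 to 1.76) and Rpl10a (1.54-fold, 1.49 to 1.6). The lowest were Rpl19 (0.588, 0.562 to 0.616), Rpl35 (0.642, 0.611 to 0.675), Rpl13 (0.642, 0.624 to 0.660) and Rpl36al (0.643, 0.527 to 0.784). The median log2 ratio was -0.14, against -0.02 over all genes.

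**Figure D3:**
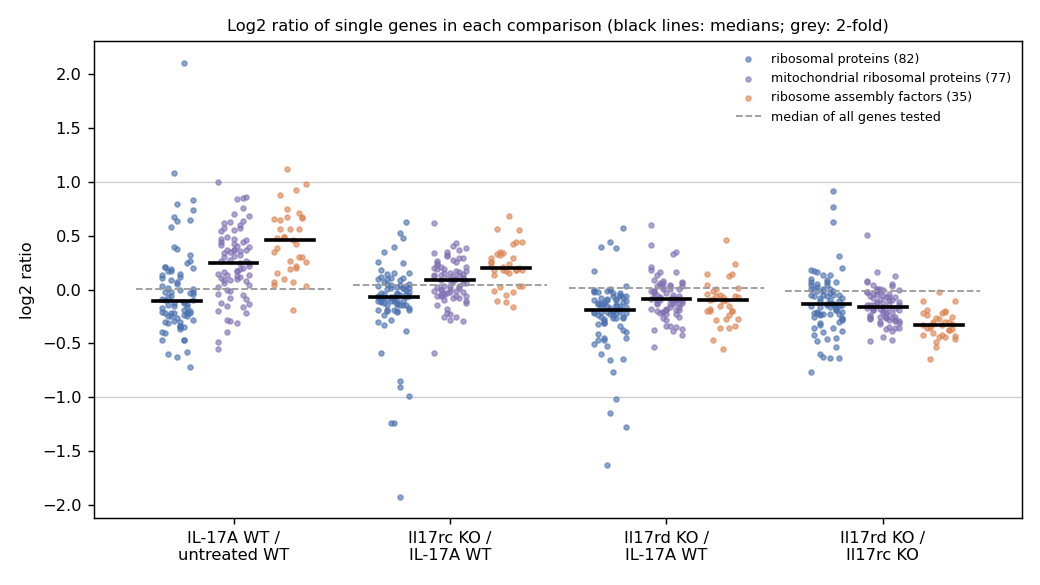
Points are single genes, placed by their log2 ratio (y axis) in the 4 comparisons (x axis), for the 82 cytosolic ribosomal protein genes, 77 mitochondrial ribosomal protein genes and 35 ribosome assembly factors; black lines are list medians, the dashed line is the median of all genes tested, and solid grey lines mark 2-fold. In the first comparison the medians are -0.10, 0.25 and 0.46, and in the third all 3 medians are below 0.

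Members with other known roles are best read one by one. Rps6, the small-subunit protein that S6 kinase phosphorylates downstream of mTOR, had 466, 476, 418 and 475 CPM in untreated WT, IL-17A WT and the Il17rc and Il17rd KO, a range of 1.14-fold. Rps19 had 328, 266, 248 and 232 CPM, and Rps20 had 471, 460.0, 416 and 387 CPM, so that both dark-skin genes were highest in untreated WT and lowest in Il17rd KO. Rpsa, which also gives rise to a laminin receptor at the cell surface, had 793, 878, 759.7 and 745 CPM. Rps27a, which is made as a fusion to ubiquitin, had 157, 179.5, 156 and 148 CPM. None of these 5 spanned 1.5-fold.

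Per length, the stalk gene Rplp1 was the most abundant member, with a mean of 2082 FPKM, followed by Rplp0 with 1104, Rps15 with 979 and Rpl8 with 889 FPKM. At the low end stood Rpl21 with 6.20, Rpl36al with 7.13, Rpl22l1 with 13.7 and Rpl35a with 20.8 FPKM, while the median member had 155 FPKM. Rplp0, the platform that binds the other stalk proteins, had 1981, 1949, 1838 and 1570.1 CPM, and Rplp1 had 1084, 1065, 1103 and 913 CPM. For these 2 genes the first 3 libraries lay close together and Il17rd KO was lower, at 0.806 (0.794 to 0.818) and 0.858 (0.841 to 0.875) times IL-17A WT. Rplp2 differed in that all 3 IL-17A libraries were below untreated WT, with 525, 407, 395 and 354 CPM.

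Several ribosomal proteins exist as paralogs encoded by separate genes. Rps27 had 142, 132, 136 and 124 CPM in untreated WT, IL-17A WT and the Il17rc and Il17rd KO, without the higher IL-17A levels of Rps27l. Rpl36a had 202, 181, 215 and 157 CPM, above untreated WT in Il17rc KO only, whereas Rpl36al was above it in all 3 IL-17A libraries. Rpl7l1, a paralog of Rpl7, had 125 CPM in untreated WT and 164, 166 and 142 in the IL-17A libraries, a ratio of 1.32 in WT, while Rpl7 had 715, 704, 649 and 508 CPM. Rps4l had 35.2, 40.6, 39.8 and 40.0 CPM beside 812, 740.0, 687 and 723 CPM for Rps4x. Rpl22l1 was the exception, with 29.4, 27.5, 24.5 and 28.1 CPM beside 289, 278, 288 and 257 CPM for Rpl22. In 4 of the 5 pairs, then, the paralog was above untreated WT in every IL-17A library, while its partner was below untreated WT in IL-17A WT. For Rpl7 the interval of that ratio includes 1 (0.986, 0.963 to 1.01). The ratio of Rps4l was small, at 1.16-fold (1.04 to 1.28) in WT.

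In several families the gene and its copies differed in opposite directions between libraries. Rows of pseudogenes or retrocopies in the tables matched 72 of the members (148 rows at 85% identity or more), and in 51 families these rows held at least 5% of the family's counts in some library. In 23 of the 51 that share also differed at least 2-fold between libraries. Copy rows were often past the size rule. In IL-17A WT against untreated WT, 38 of the 147 copy rows tested were called higher and 26 lower, 43.5% in all beside the 19.7% of all genes, and between the knockouts 13 were higher and 21 lower, 23.1% in all beside 4.24%. Copy rows have fewer counts than most genes and share reads with their parent gene, so these shares are a description.

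Rpl28-ps1 had 805 counts without IL-17A, 13 in IL-17A WT, 307 in Il17rc KO and 654 in Il17rd KO, lowest in the library where Rpl28 itself was highest. All copy rows together held 12.6%, 0.356%, 9.81% and 17.7% of the Rpl28 family's counts. With gene and copies added, the family still had 338 CPM in untreated WT, 473 in treated WT, 221 in Il17rc KO and 185 in Il17rd KO. The range thus narrowed from 3.10-fold to 2.56-fold, and the order of the libraries stayed the same.

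For Rpl39 the copy Rpl39-ps had 488, 67, 319 and 336 counts, again lowest where the gene was highest. All its copy rows held between 6.04% and 24.4% of the family's counts, and adding them narrowed the range from 2.42-fold to 2.01-fold. In the Rpl34 family the copy Rpl34-ps1 had 356 counts without IL-17A, 860 in IL-17A WT, 375 in Il17rc KO and 9 in Il17rd KO, while the gene was lowest in IL-17A WT. The family as a whole had 241, 191, 206 and 194 CPM, a range of 1.26-fold in place of 1.51-fold for the gene. Rps12-ps3, identical to Rps12 over 384 coding bases, had 1140, 1542, 1063 and 762 counts and its family 265, 211, 228 and 217 CPM. Rps12 alone ranged over 1.55-fold and its family over less.

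In the Rpl21 family the copy rows held 28.8% of the counts without IL-17A, 2.69% in IL-17A WT, 67.2% in Il17rc KO and 7.49% in Il17rd KO. Family totals were 13.8, 43.7, 33.9 and 22.7 CPM. Under this sum the low value of Rpl21 in Il17rc KO was no longer past 2-fold: the log2 ratio to IL-17A WT was -0.37 in place of -1.93. For Il17rd KO it was -0.94 in place of -1.01. The call with IL-17A in WT cells remained, since both gene and family were lowest in untreated WT.

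Rps3a1 showed the reverse arrangement. The gene itself had the flattest profile of all members, 501, 527, 501 and 527 CPM. Its copy Gm13408 had 182 counts without IL-17A and 2515, 2551 and 2175 in IL-17A WT and the Il17rc and Il17rd KO, 13.5-fold higher (11.6 to 15.8) in treated than in untreated WT. The 3 IL-17A libraries were close to each other and all far above the untreated one. Adding the copy widened the family's range to 1.28-fold, with 511 CPM in untreated WT and 655, 629 and 633 CPM with IL-17A. Rpl27 was highest in untreated WT and lowest in Il17rd KO, with 132, 124, 115 and 99.0 CPM. Its copy Gm11518 was lowest in untreated WT and highest in Il17rd KO, with 189, 479, 315 and 590 counts. Both were lower in Il17rc KO than in IL-17A WT.

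Some copies stood apart in a single library. Rpl7-ps7 had 21, 4 and 6 counts in untreated WT, IL-17A WT and Il17rc KO and 413 in Il17rd KO, and Gm15710, a copy of Rpl13 at 99.8% identity, had 41, 83 and 75 counts and 831 in Il17rd KO. Adding its copies moved Rpl13 only from 389 to 436 CPM in Il17rd KO, still below the other 3 libraries. Rpl7a-ps11 had 108, 659, 0 and 62 counts, where the 0 allows up to 3 counts. Rpl7a itself had 193, 129, 181 and 124 CPM, so it was lower in treated than in untreated WT where this copy was higher. Other copy rows of Rpl7a did not all go the same way as Rpl7a-ps11.

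**Figure D4:**
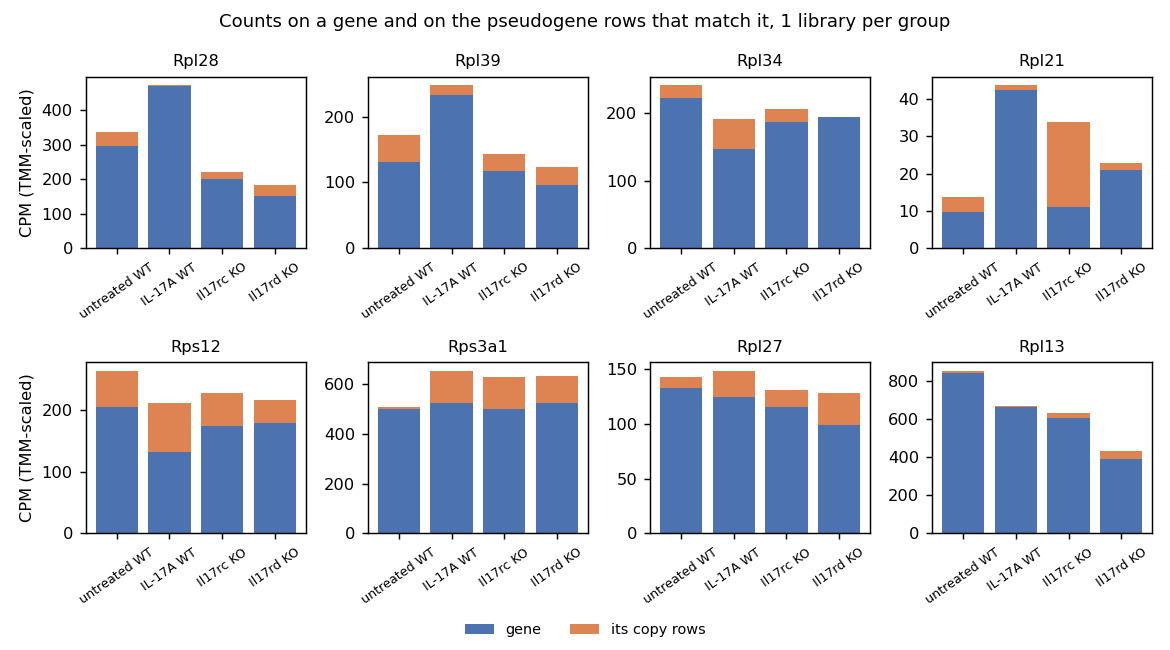
Bars give the TMM-scaled CPM (y axis, from 0, a separate scale in each panel) counted on 8 member genes (blue) and on the copy rows that match each (orange) in the 4 libraries (x axis). Copy rows hold 0.356% to 17.7% of the Rpl28 family and 2.69% to 67.2% of the Rpl21 family, and the Rps3a1 copy row is far lower in untreated WT than in the IL-17A libraries.

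Over all 72 families, gene and copies together had a narrower range than the gene alone in 48, and in 18 of the 23 whose copy share differed at least 2-fold. Some differences involved copies little. The copy rows of Rpl15 held 1.75% to 4.03% of that family's counts, and the family's range was 2.33-fold beside 2.36-fold for the gene. For Rpl10a, with 1 near-identical copy, the ranges were 2.46-fold and 2.50-fold. Rpl5 gave 1.62-fold and 1.64-fold, and Rpl35a 1.91-fold and 1.92-fold. Rps27l has no near-identical annotated copy. Of the 12 near-identical copies of Rpl15 only 2 are rows of the tables. Copies that are not rows were not analysed here, and their part was not tested.

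**Figure D5:**
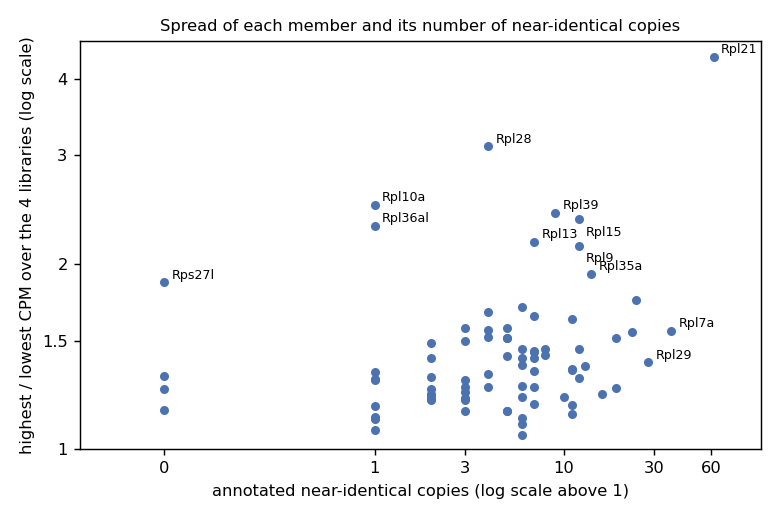
Each point is a member, placed by its number of annotated near-identical copies (x axis, log scale above 1) and by its highest over its lowest CPM in the 4 libraries (y axis, log scale). Rps4l, which was not searched for copies, is placed at 0. Genes with over 10 copies have a median range of 1.45-fold and those with 1 to 4 copies one of 1.28-fold, the widest ranges are those of Rpl21 with 62 copies and Rpl28 with 4, and Rps27l with 0 copies spans 1.87-fold.

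Set by the number of near-identical copies, the median range was 1.28-fold for the 4 genes with none found, 1.28-fold for 32 genes with 1 to 4, 1.41-fold for 27 genes with 5 to 10 and 1.45-fold for 19 genes with more than 10. Rps4l, which was not searched for copies, is counted among the 4. The 8 genes that spanned 2-fold were spread over the last 3 sets as 3, 2 and 3. The summed level of the 4 genes without a copy found, Rps27l and Rps4l among them, was 1386, 1252, 1201 and 1128 CPM in untreated WT, IL-17A WT and the Il17rc and Il17rd KO. This is the order of the full sum, and Il17rd KO stood at 0.901 times IL-17A WT (0.885 to 0.917).

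Among lists within the ribosome, 9 proteins at or just inside the exit tunnel rim were all below 0 in Il17rd KO against IL-17A WT. Their median log2 ratio was -0.45, and 6 of 9 were lower by the 25% rule, against 15.5% of all genes. The 9 are Rpl17, Rpl19, Rpl22, Rpl23a, Rpl26, Rpl31, Rpl35, Rpl38 and Rpl39. Rpl39 lies inside the tunnel, and the others surround the point where the new protein leaves the ribosome. Rpl17, Rpl31 and Rpl39 belong to families whose copy share differed at least 2-fold between libraries, and the part of the copies in this list was not tested. Of the 18 genes linked to Diamond-Blackfan anaemia, 16 were below 0 in that comparison, with a median of -0.21 and 6 lower by the 25% rule, against the same 15.5%. Of all 82 members, 75 were below 0 and 19 were lower by the 25% rule in that comparison, with a median of -0.19. Of the 12934 genes tested, 6301 were below 0 there. Among ribosomal proteins outside the symbol pattern, Rack1 had 1258, 1048, 936 and 974 CPM and Fau had 497, 455, 387 and 429 CPM. Their log2 ratios in Il17rd KO against IL-17A WT were -0.10 and -0.09.

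Ribosome assembly genes were mostly higher in treated than in untreated WT, where the sum of the ribosomal proteins was slightly lower. Of 35 ribosome assembly factors, 34 were above 0 in IL-17A WT against untreated WT, beside 6517 of the 12934 genes tested. By the 25% rule 21 were higher and 0 lower, against 27.8% and 28.2% of all genes. The median log2 ratio of the 35 was 0.46. Nop58, a core protein of the complexes that methylate ribosomal RNA, had 84.4 CPM in untreated WT and 184, 233 and 166 CPM in IL-17A WT and the Il17rc and Il17rd KO. Dkc1, the pseudouridine synthase of the nucleolus, had 41.8, 82.8, 94.0 and 68.5 CPM, and nucleolin (Ncl) had 534, 1015, 1241 and 914 CPM. All 3 had the same order, with untreated WT lowest and Il17rc KO highest.

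In Il17rc KO against IL-17A WT 10 assembly factors were higher and 0 lower by the 25% rule, against 21.6% and 16.8% of all genes. Between the knockouts all 35 were below 0 in Il17rd KO, beside 6781 of the 12934 genes tested. Their median was -0.33, and 18 were lower by the 25% rule, against 12.6% of all genes. The 77 mitochondrial ribosomal protein genes, which encode a separate ribosome of bacterial kind, had a median of 0.25 in IL-17A WT against untreated WT, with 33 higher and 3 lower by the 25% rule, against 27.8% and 28.2% of all genes. The first of these was Mrps33, with 9.18, 18.5, 12.2 and 17.4 CPM. Another list held 14 genes of RNA polymerase I, which transcribes ribosomal RNA, and of its associated factors. Of these, 11 were above 0 in the same comparison with a median log2 ratio of 0.09. By the 25% rule only 3 were higher and 1 lower, against 27.8% and 28.2% of all genes. Twistnb had the largest log2 ratio, 0.65.

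Genes outside the ribosomal proteins of the symbol pattern whose mRNAs are known to carry a TOP tract were mixed. The list holds elongation and initiation factors and other genes, among them Btf3, Npm1 and Rack1. Of 19 such genes, 2 were higher and 5 lower by the 25% rule in IL-17A WT against untreated WT, and their median log2 ratio was -0.08. The shares of all genes were 27.8% and 28.2%. Btf3, a subunit of the complex that meets new proteins at the exit tunnel, had 173, 381, 261 and 294 CPM, and nucleophosmin (Npm1) had 451, 836, 901 and 688 CPM. On the lower side, Eef1g had 986, 634, 890.0 and 858 CPM, a profile with IL-17A WT alone at the bottom, and Eef2 had 4925, 3195, 2905 and 3462 CPM. Eef1a1 had 7635, 6089, 4996 and 3712 CPM, which is the order of the summed ribosomal proteins.

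Of 15 genes of mTOR signalling and of the control of TOP mRNAs, 3 were higher and 7 lower by the 25% rule in that comparison, against the same 27.8% and 28.2% of all genes. Rps6kb2, an S6 kinase, had 37.3, 15.6, 23.0 and 21.9 CPM, a log2 ratio of -1.25 in WT. Eif4ebp1, the inhibitor of eIF4E that mTOR phosphorylates, had 166, 96.3, 116 and 116 CPM, and Mtor itself 101, 65.5, 77.9 and 75.3 CPM. For each of the 3 the IL-17A WT library was the lowest and untreated WT the highest. The 3 higher genes were Mycn, Larp4 and Eif4e. Mycn, which encodes a transcription factor of the MYC family, had only 14, 38, 25 and 10 counts. Eif4e, the cap-binding protein, had 92.3, 136, 157 and 130.05 CPM, and Larp4 had 101, 156, 177 and 154 CPM, both lowest in untreated WT.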

How the data were processed

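Each of the 4 RNA-seq libraries has a table with symbols, counts and FPKM values. The submitters' processing notes name Trim Galore 0.4.4, HISAT2, featureCounts (Subread) and edgeR, with build mm10. Settings, annotation, strandedness and the treatment of reads with several matches are not stated in any source used here. The authors deposited whole-number counts that are not normalized. The FPKM values deposited by the authors correct for gene length and depth and served to compare levels between genes. Every row exceeds 1 CPM in at least 2 libraries. Another 17 symbols had been turned into dates and are not named.

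Library sizes were scaled by TMM (edgeR 4.0.16), with factors of 0.963, 0.984, 1.01 and 1.04. Ratios carry exact 95% conditional binomial (Clopper-Pearson) intervals, computed with scipy 1.17.1, and log2 ratios a prior count of 2. The reads carry no molecular identifiers, so they are not independent molecules. With 1 library per group, a size rule replaces a test: 2-fold with 1 outside the interval, for the 12934 genes that average 1 CPM or more. The rule was tried on counts simulated for IL-17A WT against untreated WT, with counting error only and no variation between cultures. It called 40.0% of 50 genes changed 2-fold, 98.0% of 50 genes changed 4-fold and 0.0711% of 12660 genes left unchanged. A true 2-fold change lies at the rule's own cut, so the first of these shares follows largely from the cut. How it behaves with variation between cultures was not tested. Copies were found with BLAST+ 2.17.0 among GENCODE M21 transcripts, on both strands, at 95% identity (near-identical) or 85% (family rows) over at least 50% of either sequence. Rps4l, without a protein-coding entry, was not searched. DESeq2 1.42.0 gave alternative size factors. Named are members past 2-fold, the 4 with the largest ratio each way per comparison, paralog pairs, the 4 highest and lowest in FPKM, members with shifting copy shares, a set of well-known genes and up to 4 members of each other list. Eef1a1, Eif4e, Larp4, Rpl24, Gm11518, Gm15710, Rpl7-ps7 and Rpl7a-ps11 were singled out after their values were seen. Some members, copies and listed genes enter the sums and counts but are not reported here by name. The members and lists were chosen with earlier results of these data known.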

Additional observations from a re-analysis of the deposited data

How the results depend on the processing

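No paired analysis was possible because each group has 1 library, and for the same reason no replicate could be left out. Under DESeq2 size factors, library totals and TMM factors computed without the members, pseudogenes and mitochondrial genes, the summed ratios and the medians kept their direction in all 4 comparisons. The sum of Il17rd KO over IL-17A WT ranged from 0.862 to 0.921 and that of IL-17A WT over untreated WT from 0.934 to 0.954. Library totals move every log2 ratio of Il17rd KO to untreated WT by 0.11. Left with the 4 members without a near-identical copy found, the median log2 ratio in IL-17A WT against untreated WT reversed to 0.0705, and 0 members were called in any comparison. Among these 4 is Rps4l, which was not searched for copies. With a mean of at least 10 CPM, or without the paralogs, 1 member was called higher with IL-17A in WT, and the filter left 1396, 742, 641 and 195 of all genes called in the 4 comparisons, in the order of the text (2544, 1430, 1294 and 549 without it). At 1.5-fold, 8 members were higher and 3 lower with IL-17A in WT, 1 and 7 in Il17rc KO, 0 and 8 in Il17rd KO against IL-17A WT, and 3 and 5 between the knockouts, with 4753, 2854, 2637 and 1579 of all genes called. By the 25% rule the members were 12 and 14, 5 and 9, 4 and 19, and 3 and 15, with 7242, 4976, 4564 and 3356 of all genes. Among single members, Rpl39 in Il17rc KO passed 2-fold under DESeq2 size factors (-1.01), and Rpl21 in Il17rd KO lost it under library totals (-0.93) and with its pseudogene rows (-0.94), as Rpl21 in Il17rc KO did with its pseudogene rows (-0.37). The cause was not tested. At the depth of these libraries counting error is small for most members, and the spread between cultures is unknown.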
